A study of Mus musculus with 24 samples.

Results

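Protocadherins form the largest branch of the cadherin superfamily of cell adhesion molecules, and they were followed here through neural differentiation of mouse cells with and without SmcHD1. All rows of the expression table outside the X chromosome that carry a symbol starting with Pcdh were taken. That gave 33 of 23119 rows. Of these, 22 are single Pcdhb genes and 10 are non-clustered genes, Pcdh followed by a number. The remaining row is shared by 37 symbols of the Pcdha and Pcdhg families. Another 2 protocadherin rows lie on the X chromosome, whose reads had been removed, and they were left out.

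Poly(A) RNA had been sequenced from 24 libraries in 8 groups of 3. The WT cells are JB4/EI7HZ2, female F1 mESCs of the mouse strains JF1 and B6, and the KO cells are 1 line derived from them with CRISPR–Cas9, with small deletions in both Smchd1 alleles. Both genotypes were studied as undifferentiated mESCs, grown with serum and 2i/LIF, after 7 and 9 days of differentiation toward neurectoderm (day 7 and day 9 cells), and as neural stem cells (NSCs) grown with FGF2 and EGF. The NSCs were derived from mESCs by a separate protocol and not from the day 9 cells. Between day 9 cells and NSCs, stage and protocol therefore cannot be told apart. The media of mESCs and NSCs also held G418 and Zeocin, to select for cells with both X chromosomes. Each genotype is 1 line, so the mutation and any other difference between the lines cannot be told apart. Expression values are FPKM, fragments mapped per kilobase of transcript, scaled to the size of the library. Smchd1 itself, the targeted gene, stood at 1.82 to 4.40 FPKM in the KO libraries and at 13.0 to 26.4 FPKM in the WT libraries, with no overlap at any stage. The summed level of 6 pluripotency markers ran from 2473 to 2979 FPKM in mESCs and from 5.72 to 12.6 FPKM in NSCs. In bulk RNA, fewer cells that express a gene and less RNA per cell cannot be told apart.

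The clustered protocadherins are cell surface proteins of neurons, and each neuron is known to use a small set of them picked by stochastic promoter choice, which gives it an identity that its own branches can recognise. The Pcdha and Pcdhg genes join alternative variable exons, each with its own promoter, to a constant region. The Pcdhb genes lack such a constant region. SmcHD1, a non-canonical SMC protein, is known to take part in silencing of the clusters, along with DNA methylation, while CTCF and cohesin bring their promoters and enhancers together. The non-clustered δ-protocadherins are encoded by separate genes and mark regions and layers of the developing nervous system.

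In the annotation of the mm9 build, the build of the deposited files, the Pcdhb genes lie at chr18:37424652-37681073, all 22 on the plus strand within 256.4 kb. The annotation gives 20 of them as 1 exon block, and it lists Pcdhb20 as a pseudogene. The deposited table places all of these rows, the shared row, Taf7 and Slc25a2 in 1 joint locus, at chr18:37089939-38001526. The Pcdhb genes are close paralogs, so reads could be split among them. Of the 80-base windows of a Pcdhb gene, 0% to 3.73% (the highest for Pcdhb6) occur unaltered elsewhere in the genome, and in 4 genes no window does. How the authors divided such reads is not stated, and exact matches do not bound the reads that paralogs could share, so differences among the Pcdhb genes are uncertain.

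In WT cells the Pcdhb genes went from nearly no signal to a broad low level. Their summed level was 0.125 ± 0.0568 FPKM (SD, n = 3) in WT mESCs, 1.43 ± 0.324 FPKM at day 7, 9.87 ± 2.12 FPKM at day 9 and 55.6 ± 15.4 FPKM in NSCs. The 3 WT libraries of each group did not overlap with those of the group named before it. In KO cells the corresponding sums were 0.134 ± 0.117 FPKM, 8.30 ± 0.889 FPKM, 34.2 ± 5.36 FPKM and 74.2 ± 6.14 FPKM. The KO libraries stood at 7.29 to 8.96 FPKM at day 7, which overlapped the range of the WT libraries at day 9, where they stood at 7.42, 11.01 and 11.2 FPKM. These sums are a description over all 22 genes and carry no test.

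**Figure D1:**
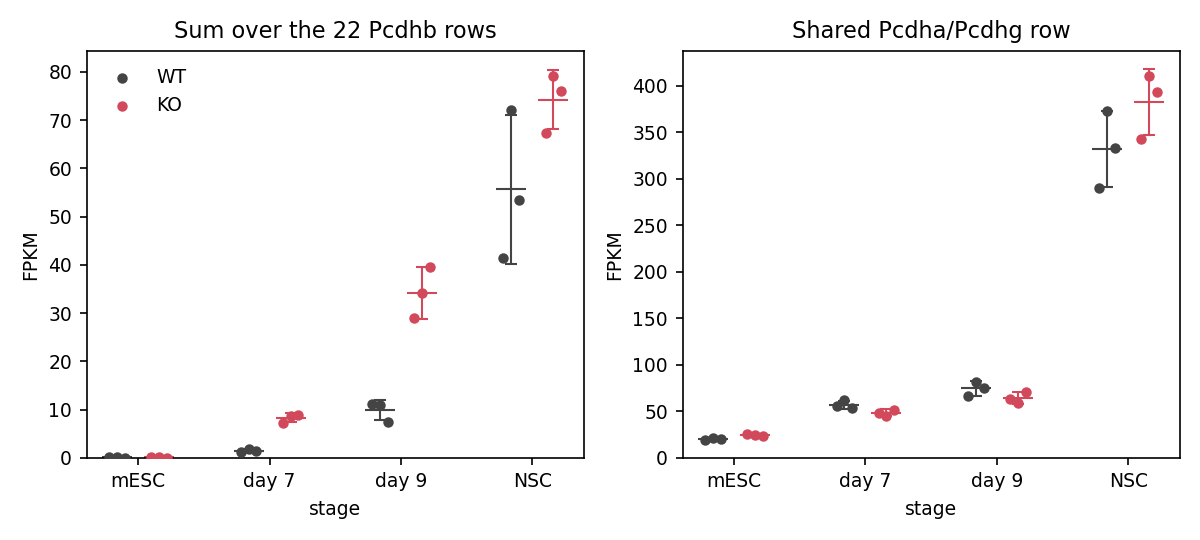
Summed FPKM of the 22 Pcdhb rows (left) and FPKM of the shared Pcdha/Pcdhg row (right) by stage, with a point for each library, and a bar and whiskers for the mean and SD of 3 libraries of WT (grey) or KO (red). The Pcdhb sum of KO lies above WT at day 7 (8.30 against 1.43 FPKM) and day 9 (34.2 against 9.87 FPKM), while the shared row rises mainly in NSCs (332 FPKM in WT and 382 FPKM in KO).

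Undifferentiated cells showed little of the Pcdhb genes in either genotype. Of the 22 Pcdhb genes, 3, 1 and 1 were above 0 in the WT mESC libraries and 3, 2 and 0 in the KO mESC libraries, and every such value was below 0.2 FPKM. The lowest value above 0 of Pcdhb3 in any of the 24 libraries was 0.0489 FPKM. None of the 19 protocadherin rows that were tested was called between KO and WT mESCs with limma, against 0.529% of all 12105 rows tested. A row is called here where the Benjamini-Hochberg adjusted p over all tested rows is below 0.05, and a row was tested where its mean over the 24 libraries was at least 1 FPKM. At an unadjusted p under 0.05 the shared row was the single protocadherin row in this comparison, and 927 of the tested rows passed that level.

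That filter on low values kept 11 Pcdhb rows, the shared row and 7 non-clustered rows. The 14 rows below it are Pcdhb1, Pcdhb6, Pcdhb7, Pcdhb8, Pcdhb9, Pcdhb12, Pcdhb13, Pcdhb14, Pcdhb15, Pcdhb16, Pcdhb21, Pcdh12, Pcdh15 and Pcdh20. Most of the kept rows had their highest mean in NSCs, so a rise from mESCs was built into the choice. For that reason counts over the rows that passed are read as a description, and a fit with no filter (18156 rows) is given beside them where all 22 Pcdhb genes are meant.

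At day 7 every Pcdhb gene had a higher mean in KO than in WT cells. This rests on 1 library per genotype for Pcdhb1 (0.0300 FPKM in WT and 0.0307 FPKM in KO) and Pcdhb13, and on 1 KO library for Pcdhb9. In 17 of 22 the KO libraries lay above all 3 WT libraries, an arrangement found in 8.92% of all rows without the filter. Pcdhb2 was listed at 0 in the 3 WT libraries and at 0.902, 0.889 and 0.645 FPKM in the KO libraries. Its difference on the log2(FPKM + 1) scale, used for all differences below, was 0.85 (SE 0.18, limma adjusted p = 0.00655). Pcdhb22, the most abundant member at this stage, stood at 0.245, 0.849 and 0.597 FPKM in WT and 0.926, 1.38 and 1.88 FPKM in KO cells. Its libraries did not overlap, but its difference of 0.61 missed the threshold (limma adjusted p = 0.0594). It was called in 4 of the alternatives, among them the replicate block, a fit with the replicate number as a term (limma adjusted p = 0.0407).

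Of the 19 rows tested at day 7, 4 were called, against 3.68% of all rows tested. Those that rose in KO cells were Pcdhb2, Pcdhb11 (0.0540 to 0.640 FPKM, difference 0.64) and Pcdhb17 (0.0453 to 0.518 FPKM, difference 0.53), and 1.18% of all rows rose. Without the filter the same 3 of 22 Pcdhb genes were called higher, against 1.05%. Over all 22 genes the median difference was 0.32, where that of all rows was 0. Pcdhb11 and Pcdhb17 were close to the threshold (limma adjusted p = 0.0440 and 0.0444), and Pcdhb11 lost its call in 7 of 11 alternatives, among them leaving out any 1 of the 6 libraries. Pcdhb17 lost its call in 8 of 11, among them 5 of the 6 libraries left out, the fit of the 6 libraries alone and the replicate block (limma adjusted p = 0.0885). With the libraries scaled to the same sum of FPKM, 1 row was called higher and 1 lower. With a pseudocount of 0.1 in place of 1, which weighs low values more, 8 rows were called higher and 2 lower. Without replicate 3 of WT, or without replicate 3 of KO, the calls fell to 2. Over all rows, 446 were called in the main fit, 403 with scaling and 338 with the pseudocount of 0.1. Without these WT and KO replicates, 280 and 294 were.

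At day 9 all 22 Pcdhb means were again higher in KO cells, and in 21 of 22 the KO libraries lay above all WT libraries, against 12.2% of all rows without the filter. Pcdhb11 stood at 0.201, 0.411 and 0.366 FPKM in WT cells and at 2.47, 2.93 and 3.24 FPKM in KO cells. This was the largest difference of the family, 1.55 (SE 0.18, limma adjusted p = 3.46e-06). Pcdhb2 had 0.599, 0.545 and 0.555 FPKM in WT and 2.86, 3.14 and 4.15 FPKM in KO cells, a difference of 1.47 (SE 0.18, limma adjusted p = 1.22e-05). Pcdhb22 was again the most abundant, with 1.61, 1.90 and 1.18 FPKM in WT and 4.76, 5.15 and 6.51 FPKM in KO cells, a difference of 1.34 (SE 0.18, limma adjusted p = 3.08e-05). For these 3 genes the lowest KO library was well above the highest WT library.

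Of the 19 rows tested at day 9, 9 were called, where 6.68% of all rows were. All 9 are Pcdhb genes and all rose, where 2.58% of all rows rose. Beside the 3 genes above they were Pcdhb3 (0.646 to 2.30 FPKM, difference 1.02), Pcdhb18 (0.289 to 1.37 FPKM, 0.87), Pcdhb4 (0.330 to 1.31 FPKM, 0.78), Pcdhb20 (0.819 to 2.105 FPKM, 0.78), Pcdhb19 (0.477 to 1.25 FPKM, 0.60) and Pcdhb17 (1.31 to 2.26 FPKM, 0.49). The 2 that missed the threshold were Pcdhb5 (0.854 to 1.69 FPKM, limma adjusted p = 0.0515) and Pcdhb10 (0.199 to 1.14 FPKM, limma adjusted p = 0.0758), and both were called with the replicate block (limma adjusted p = 0.0397 and 0.0285). Without the filter 17 of the 22 genes were called higher, against 2.42% of rows (6.73% were called in either direction), and their median difference was 0.70 where that of all rows was 0. Among genes under the filter, Pcdhb16 went from 0.237, 0.554 and 0.141 FPKM in WT to 1.13, 1.46 and 1.80 FPKM in KO cells. Leaving out replicate 3 of WT lowered the number of called rows from 9 to 5, and that of all rows from 809 to 494. Pcdhb17 lost its call in 9 of 11 alternatives, the replicate block among them (limma adjusted p = 0.0856), and Pcdhb19 in 4. With the pseudocount of 0.1, 8 rows were called higher, as many as at day 7, and the difference between the KO effects of these stages was not tested.

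**Figure D2:**
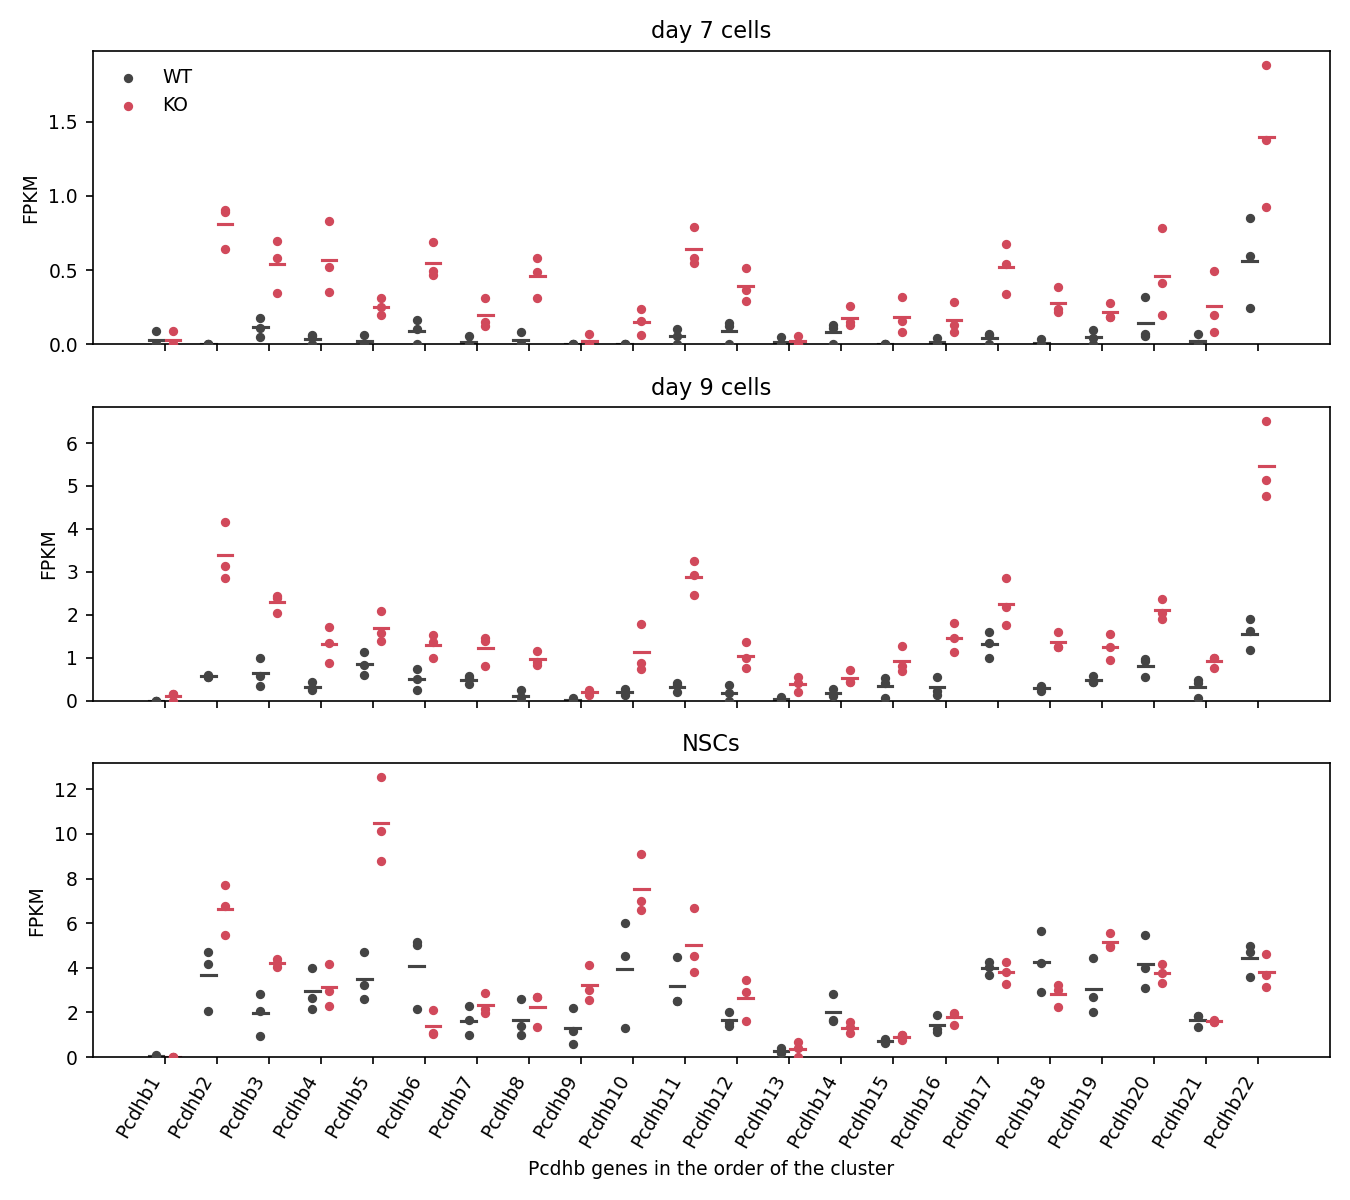
FPKM of the 22 Pcdhb genes at day 7, day 9 and in NSCs, in their order along the cluster, with a point for each library and a line for the mean of 3 libraries of WT (grey) or KO (red). At day 9 the KO points lie above the WT points in 21 of 22 genes, whereas in NSCs Pcdhb5 and Pcdhb10 stand high in KO and Pcdhb6 and Pcdhb18 have the higher mean in WT.

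In NSCs the genotypes differed in a few members rather than across the cluster. The KO mean was higher in 14 of 22 Pcdhb genes and lower in 8. Pcdhb5 was at 2.62, 3.22 and 4.72 FPKM in WT and at 8.79, 10.1 and 12.5 FPKM in KO NSCs, which made it the most abundant Pcdhb gene there. Its difference was 1.36 (SE 0.16, limma adjusted p = 1.62e-05). Pcdhb10 was at 1.30, 6.02 and 4.55 FPKM in WT and 6.58, 9.08 and 6.99 FPKM in KO NSCs, a difference of 0.92 (SE 0.26, limma adjusted p = 0.0389). Without replicate 1 of the WT NSCs, the lowest of its group, the difference was 0.44 and was not called (limma adjusted p = 0.128). The other called rows were Pcdhb3 (1.95 to 4.20 FPKM, difference 0.87), Pcdhb2 (3.66 to 6.65 FPKM, 0.75) and Pcdhb19 (3.05 to 5.14 FPKM, 0.64). Without the same library the difference of Pcdhb2 was 0.48 and kept its call (limma adjusted p = 0.0488).

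These 5 of 19 rows compare with 6.02% called and 2.54% called higher among all rows in NSCs. Without the filter 7 of the 33 rows were called, where 4.82% of all rows were. Pcdhb9 was then called higher (1.32 to 3.24 FPKM, difference 0.91) and Pcdhb6 lower. Pcdhb6 stood at 2.15, 5.15 and 5.01 FPKM in WT and 1.09, 2.12 and 1.02 FPKM in KO NSCs, and its libraries did not overlap. Pcdhb18, with 4.26 against 2.83 FPKM, overlapped between genotypes and was not called, though it was called lower without replicate 1 of the WT NSCs (-0.63, limma adjusted p = 0.00744). Pcdhb11 was called higher with the replicate block and without replicate 2 of the WT NSCs. Over all 22 genes the median difference was 0.19. The fit takes its spread from all 8 groups. Pcdhb10 lost its call in 6 of 11 alternatives, Pcdhb19 in 5, Pcdhb2 in 4, Pcdhb3 in 2 and Pcdhb5 in 1. With a pseudocount of 0.1 only 1 row was called, none was when only the 6 NSC libraries were fitted, and leaving out KO replicate 2 or KO replicate 3 lowered them to 2. Over all 12105 rows, 729 were called in the main fit, 699 with that pseudocount and 58 with the 6 NSC libraries alone. Without KO replicate 2 or 3, 485 and 406 were.

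**Figure D3:**
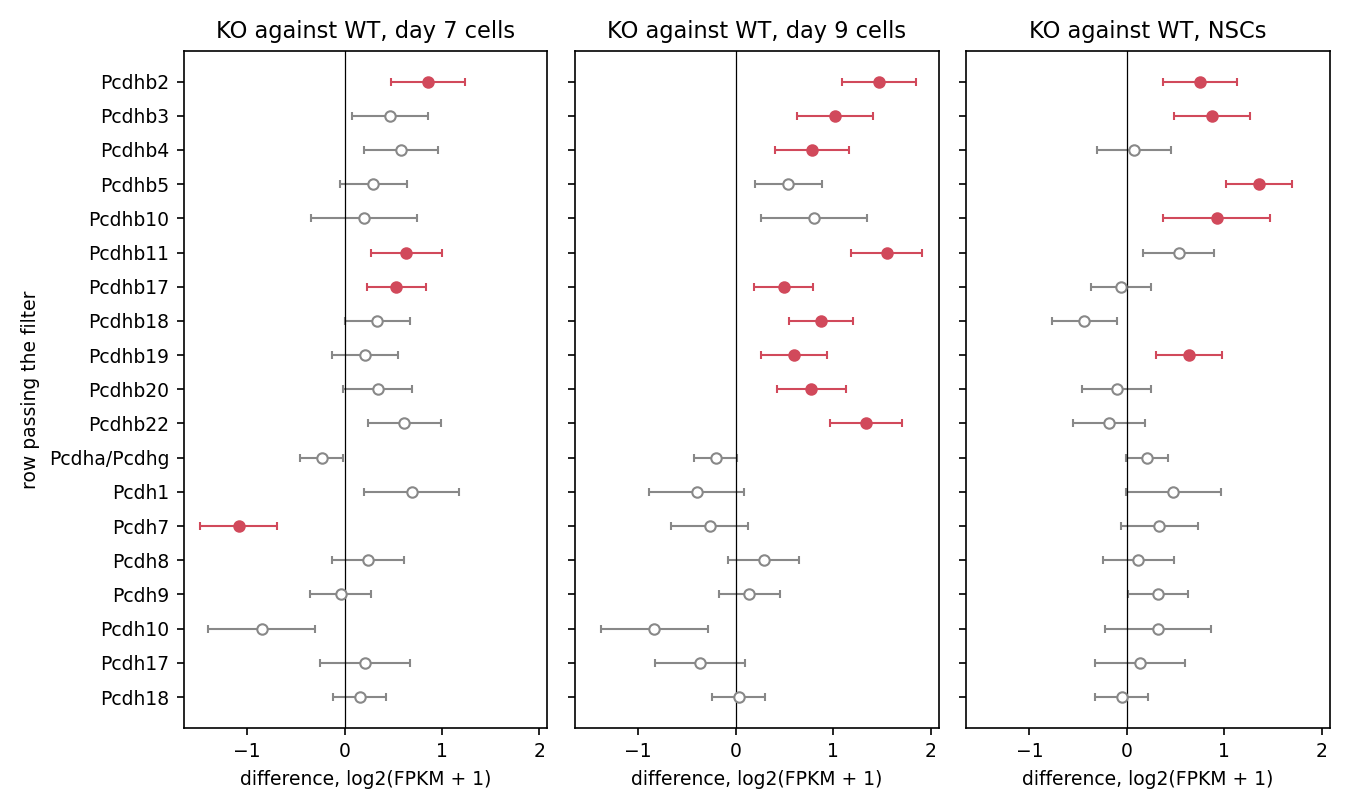
Difference between KO and WT on the log2(FPKM + 1) scale with its 95% interval for the 19 protocadherin rows tested, at day 7, day 9 and in NSCs, where filled red points are called rows and open grey points are not. The 9 called rows at day 9 are Pcdhb genes to the right of 0, and Pcdh7 at day 7 is the 1 called row to the left.

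The KO effect itself differed between stages in some members. Compared with the KO effect in mESCs, that at day 7 differed in 0 of 19 rows (limma, adjusted p below 0.05) against 1.68% of all rows, and 1191 of all tested rows had an unadjusted p under 0.05. With a pseudocount of 0.1 it differed in 3 rows (145 of all rows), with the libraries of the comparison alone in 2 (153) and with the replicate block in 1 (330). At day 9 it was larger for 5 rows, against 1.32% of all rows. These were Pcdhb11 (1.55), Pcdhb2 (1.54), Pcdhb22 (1.34), Pcdhb3 (1.07) and Pcdhb18 (0.87). Pcdhb18 lost this call in 15 of 17 alternatives, all 12 libraries left out among them, and with the replicate block (limma adjusted p = 0.0945), and Pcdhb3 lost it in 12 of 17. With the pseudocount of 0.1, 2 rows were called at day 9 (165 of all rows), and with scaling 3 (281 of all rows). In NSCs it was larger for Pcdhb5 alone (1.36, limma adjusted p = 0.00244), against 1.14% of all rows. Blocking on replicate number gave 2 called rows (504 of all rows), a pseudocount of 0.1 gave 0 (301), and the fit without the filter gave 2 against 2.08% of rows. Leaving out replicate 1 of WT day 7 cells gave 2 called rows for day 7. For day 9, leaving out any library but replicate 2 of WT mESCs or replicate 1 of WT day 9 cells gave 3. For NSCs, leaving out replicate 2 of the WT NSCs gave 4. Over all rows these fits called 253 for day 7, 181 to 287 for day 9 and 308 for NSCs. The main fit called 203, 324 and 274. These comparisons share the mESC libraries.

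A comparison of the KO effect in NSCs with that at day 9 was added after these values had been seen. Day 9 cells and NSCs also came from different protocols, which cannot be told apart from stage. The comparison called 5 of 19 rows, against 5.84% of all rows, and 8 of 33 without the filter, against 5.19%. The effect was smaller in NSCs for Pcdhb22 (-1.52), Pcdhb18 (-1.31), Pcdhb11 (-1.02) and Pcdhb20 (-0.88), and larger for Pcdhb5 (0.82). Pcdhb20 lost this call in 11 and Pcdhb5 in 10 of 17 alternatives. In WT cells Pcdhb22 was at 1.57 ± 0.359 FPKM at day 9 and at 4.42 ± 0.747 FPKM in NSCs, while in KO cells it was at 5.47 ± 0.919 and 3.79 ± 0.747 FPKM. This comparison called 3 rows without replicate 2 of WT day 9 cells, replicate 1 or 2 of KO day 9 cells or replicate 2 of KO NSCs, and 2 without replicate 3 of KO NSCs. Over all rows these fits called 424 to 578, against 707 in the main fit. The members took different shares of the cluster's signal. Pcdhb22 made up 15.9% of the WT sum and 15.99% of the KO sum at day 9, but 8.32% and 5.19% in NSCs. Pcdhb5 made up 8.57% of the WT and 4.93% of the KO sum at day 9, against 6.54% and 14.1% in NSCs.

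The weaker members differed among themselves in NSCs. Those under the filter that reached 1 FPKM in all 3 libraries of some group were Pcdhb6, Pcdhb7, Pcdhb8, Pcdhb9, Pcdhb12, Pcdhb14, Pcdhb16 and Pcdhb21. Their WT means ran from 1.32 FPKM (Pcdhb9) to 4.10 FPKM (Pcdhb6) in NSCs. At day 9 their WT means were at most 0.498 FPKM (Pcdhb6), and their KO means ran from 0.192 FPKM (Pcdhb9) to 1.46 FPKM (Pcdhb16). Pcdhb9 was nearly absent at day 9 in both genotypes and was present in NSCs, and Pcdhb14 had 2.03 FPKM in WT against 1.33 FPKM in KO NSCs with no overlap. Pcdhb1, Pcdhb13 and Pcdhb15 stayed low, with highest single values of 0.159, 0.667 and 1.27 FPKM.

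The shared Pcdha/Pcdhg row behaved differently from the Pcdhb genes. It was present in mESCs, at 19.3, 20.8 and 20.5 FPKM in WT and 25.2, 24.5 and 23.2 FPKM in KO cells. It rose in WT cells to 57.1 ± 4.39 FPKM at day 7, 74.5 ± 7.89 FPKM at day 9 and 332 ± 41.1 FPKM in NSCs. In KO cells it stood at 48.4 ± 3.66, 64.5 ± 6.15 and 382 ± 35.4 FPKM at those stages. KO was above WT in mESCs (difference 0.25) and NSCs (0.21) and below it at day 7 (-0.23) and day 9 (-0.21), with no overlap between the libraries in mESCs and at day 7, and the row was called in none of the 4 comparisons (limma adjusted p = 0.526, 0.315, 0.309 and 0.331 in that order). With 37 symbols in 1 row, a shift among the Pcdha and Pcdhg promoters cannot be seen in these values.

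Against undifferentiated cells, 7 of the 19 tested rows were called higher in WT cells at day 7, 16 at day 9 and 18 in NSCs, where 29.1%, 36.4% and 36.9% of all rows were. In KO cells the counts were 12, 19 and 18, where 29.5%, 35.7% and 37.7% of all rows were called higher. No protocadherin row fell in any of these 6 comparisons. Of the 16 rows in WT cells at day 9, Pcdh9 and Pcdhb11 lost the call in 6 of 11 alternatives each, 5 of them with 1 library left out and 1 with the replicate block (limma adjusted p = 0.0532 and 0.0515), which called 14 rows. Without the filter 30 of 33 rows were called in WT NSCs, 29 in KO cells at day 9 and 29 in KO NSCs, where 60.3%, 56.6% and 60.3% of all rows were called in either direction. As stated above, the filter favours rows that are high in NSCs, and the mESC libraries are shared by the comparisons. At day 7 the rows called in KO but not in WT cells were Pcdhb2, Pcdhb3, Pcdhb4, Pcdhb11, Pcdhb17 and Pcdhb20, and with the pseudocount of 1 none of them passed the test of the KO effect at day 7 against that in mESCs. Pcdh10 was called in WT but not in KO cells at that stage, and it did not pass that test either.

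Of 14 listed regulators known to act at the clustered promoters, 12 were tested, and Smchd1, the targeted gene, was lower in KO cells at all 4 stages while the others were not called. That 1 row of 12 stands beside 6.02% of all rows called in NSCs, 6.68% at day 9, 3.68% at day 7 and 0.529% in mESCs. Ctcf, the insulator protein, stood at 46.6 ± 1.43 FPKM in WT and 47.6 ± 2.60 FPKM in KO cells at day 9, a difference of 0.03. Dnmt3b, a de novo DNA methyltransferase, had the next largest difference after Smchd1, with 48.2 ± 12.02 FPKM in WT and 80.3 ± 19.9 FPKM in KO cells at day 7 (0.73, limma adjusted p = 0.109). The list's median difference ran from 0.0056 at day 7 to 0.14 in NSCs, beside -0.00052 and 0.0073 over all rows tested.

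Of 18 genes listed beside the clusters, 14 were tested and 0 were called at any stage, where the share of all rows called was 0.529% for mESCs, 3.68% for day 7, 6.68% for day 9 and 6.02% for NSCs. Their median differences lay between -0.0091 and 0.12. The largest difference was that of Dnd1, an RNA-binding protein of germ cells, with 0.620 FPKM in WT and 1.58 FPKM in KO NSCs (0.65, limma adjusted p = 0.142). Taf7, a subunit of TFIID that lies within the joint locus, went from 63.4 FPKM in WT mESCs to 6.24 FPKM in WT NSCs, the opposite direction to its Pcdhb neighbours. Its level in KO NSCs was 4.34 FPKM (difference -0.42, limma adjusted p = 0.0986).

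The cultures also differed between genotypes in markers of other cell types. The counts of called markers stand beside 3.68% of all rows called at day 7, 6.68% at day 9 and 6.02% in NSCs. The summed level of 6 neuron markers was 112 to 152 FPKM in WT and 155 to 184 FPKM in KO cells at day 7, where none of the 6 was called. It was 504 to 548 FPKM in WT and 268 to 373 FPKM in KO cells at day 9, and 2 of the 6 fell there, Snap25 (6.74 to 3.00 FPKM) and Stmn2. In NSCs it was 29.1 to 31.6 FPKM in WT and 13.1 to 16.001 FPKM in KO cells, with a fall in Syt1, 1 of 6 tested. Syt1 stood at 19.5, 1.97 and 2.101 FPKM in WT and 1.06, 0.537 and 0.395 FPKM in KO NSCs. Replicate 1 of WT stood far above the rest, and without it the difference went from -1.81 to -0.89 and kept its call (limma adjusted p = 0.00626). In undifferentiated mESCs the same 6 neuron markers summed to 153 to 217 FPKM in WT and 146 to 189 FPKM in KO cells. Of 6 neural stem and progenitor markers, Sox1 (27.7 to 46.6 FPKM) and Pax6 (36.8 to 63.7 FPKM) rose and Olig2 (6.04 to 1.84 FPKM) fell at day 9, and at day 7 Sox1 rose and Vim and Olig2 fell. Their sum was 1297 to 1614 FPKM in WT and 1594 to 1818 FPKM in KO cells at day 9, and 5229 to 6714 FPKM in WT and 3722 to 4599 FPKM in KO NSCs, where Vim fell.

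Summed levels of mesoderm and endoderm markers were lower in KO cells at day 7 and day 9. The 6 paraxial mesoderm markers summed to 57.5 to 156 FPKM in WT and 3.38 to 5.04 FPKM in KO cells at day 7, with 2 of 2 tested falling, T (103 to 1.59 FPKM) and Meox1 (15.97 to 0.124 FPKM). The 5 endoderm markers summed to 61.0 to 152 FPKM in WT and 1.09 to 4.58 FPKM in KO cells at day 7, with 3 of 3 tested falling, Cer1 (69.4 to 1.87 FPKM) and Foxa2 (29.6 to 0.726 FPKM) the most. At day 9 the mesoderm sums were 17.1 to 44.1 FPKM in WT and 5.20 to 15.9 FPKM in KO cells, with 2 of 2 tested falling, and the endoderm sums 28.2 to 52.2 FPKM and 4.70 to 14.4 FPKM, with 1 of 3 tested, Foxa2, falling. In NSCs the endoderm markers summed to at most 0.176 FPKM in WT and to 1.59 to 3.996 FPKM in KO cells with no row called, and in mESCs the mesoderm markers summed to 8.60 to 15.6 FPKM in WT and 13.1 to 19.4 FPKM in KO cells, again with none called. Endothelial markers summed to 11.3 to 17.0 FPKM in WT and 5.995 to 9.09 FPKM in KO cells at day 7, where Cdh5 was called lower, and Pecam1 was called at no stage. At day 9 they summed to 8.37 to 19.7 FPKM in WT and 3.69 to 7.88 FPKM in KO cells, again with no overlap, and neither of the 2 tested was called (Cdh5, limma adjusted p = 0.0529). In NSCs the 5 glial markers in the table summed to 11.3 to 51.0 FPKM in WT and 41.4 to 134 FPKM in KO cells, with S100b higher and Sox10 (5.56 to 0.607 FPKM) and Cspg4 lower among 4 tested, and Gfap, at 5.10 ± 4.32 FPKM in WT and 25.0 ± 30.9 FPKM in KO NSCs, not called. S100b lost its call without replicate 1 of the WT NSCs (1.37 to 0.70) and Cspg4 without replicate 2 of the KO NSCs (-0.75 to -0.46). Of the 6 pluripotency markers none was called, and the largest differences were those of Esrrb in NSCs (-0.71) and Zfp42 at day 7 (-0.52). The part of these differences between the cultures in the protocadherin values was not tested.

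The non-clustered genes fell into genes highest at day 7, at day 9 and in NSCs, and 1 of the 7 tested, Pcdh7 at day 7, was called between genotypes, where 3.68% of all rows were called at that stage. With the replicate block Pcdh1 was called higher at day 7 (limma adjusted p = 0.0405), as it was without replicate 1 of WT, and Pcdh10 lower at day 7 and day 9. Promoters are given for 4 of them, a pair that was highest at day 9 (Pcdh8, known from paraxial mesoderm and as activity-regulated arcadlin in neurons, and Pcdh18) and a pair that was highest in NSCs (Pcdh10 and Pcdh17, adhesion molecules of the forebrain). The 300 bases run from 250 before to 50 after the annotated start, from RefSeq on GRCm38.p6, and the pairs of C followed by G are in capitals. Of the 10 non-clustered genes 8 had an entry in that table.
Pcdh8, chr14:79771263-79771562, minus strand: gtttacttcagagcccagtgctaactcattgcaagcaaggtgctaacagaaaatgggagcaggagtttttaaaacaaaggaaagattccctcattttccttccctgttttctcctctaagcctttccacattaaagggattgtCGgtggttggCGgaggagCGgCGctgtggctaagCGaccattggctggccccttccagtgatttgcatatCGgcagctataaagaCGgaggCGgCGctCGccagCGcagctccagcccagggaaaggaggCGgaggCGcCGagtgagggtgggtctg
Pcdh18, chr3:49757267-49757566, minus strand: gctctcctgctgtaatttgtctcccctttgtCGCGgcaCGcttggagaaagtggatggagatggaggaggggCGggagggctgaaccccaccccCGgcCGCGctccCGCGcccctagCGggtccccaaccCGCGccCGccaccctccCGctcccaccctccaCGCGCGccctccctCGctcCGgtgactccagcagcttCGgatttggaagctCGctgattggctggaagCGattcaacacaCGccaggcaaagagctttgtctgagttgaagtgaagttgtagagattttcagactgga
Pcdh10, chr3:45378148-45378447, plus strand: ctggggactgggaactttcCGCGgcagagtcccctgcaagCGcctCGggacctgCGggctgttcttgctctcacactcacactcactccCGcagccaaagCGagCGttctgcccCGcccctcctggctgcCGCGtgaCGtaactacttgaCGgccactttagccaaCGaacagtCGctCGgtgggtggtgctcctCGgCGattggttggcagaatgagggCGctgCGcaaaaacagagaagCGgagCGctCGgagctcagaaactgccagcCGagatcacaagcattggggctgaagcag
Pcdh17, chr14:84443313-84443612, plus strand: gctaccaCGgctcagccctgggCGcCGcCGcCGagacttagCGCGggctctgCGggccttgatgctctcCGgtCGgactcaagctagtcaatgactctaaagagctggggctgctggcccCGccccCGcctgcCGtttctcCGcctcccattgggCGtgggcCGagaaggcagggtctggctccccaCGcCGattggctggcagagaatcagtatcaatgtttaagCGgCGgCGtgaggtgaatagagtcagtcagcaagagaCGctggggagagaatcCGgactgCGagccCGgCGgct
The CG pairs number 14 for Pcdh8, 23 for Pcdh18, 24 for Pcdh10 and 26 for Pcdh17, where the median of 32851 promoters is 7. At least as many as in Pcdh8 were found in 36.3% of all promoters, and at least as many as in Pcdh17 in 16.9%. TATAAA, searched on both strands, occurs in the Pcdh8 window and in none of the other three, and 13.6% of all promoters hold it.

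Pcdh8 was listed at or near 0 in mESCs, and it then had 8.69, 4.68 and 4.57 FPKM in WT and 8.26, 6.10 and 6.71 FPKM in KO cells at day 7. At day 9 it reached 29.9, 26.2 and 23.7 FPKM in WT and 30.9, 29.7 and 37.6 FPKM in KO cells. It stood at 0.0541 to 0.352 FPKM in WT NSCs, so day 9 stood apart from all other stages. Pcdh18 was at 14.4, 14.7 and 14.7 FPKM in WT and 14.7, 14.3 and 15.8 FPKM in KO cells at day 9, above its 6.90 ± 0.354 FPKM in WT cells at day 7 and 4.51 ± 1.20 FPKM in WT NSCs. Neither gene was called between KO and WT at any stage, with differences from -0.053 to 0.16 for Pcdh18 and from -0.021 to 0.29 for Pcdh8.

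**Figure D4:**
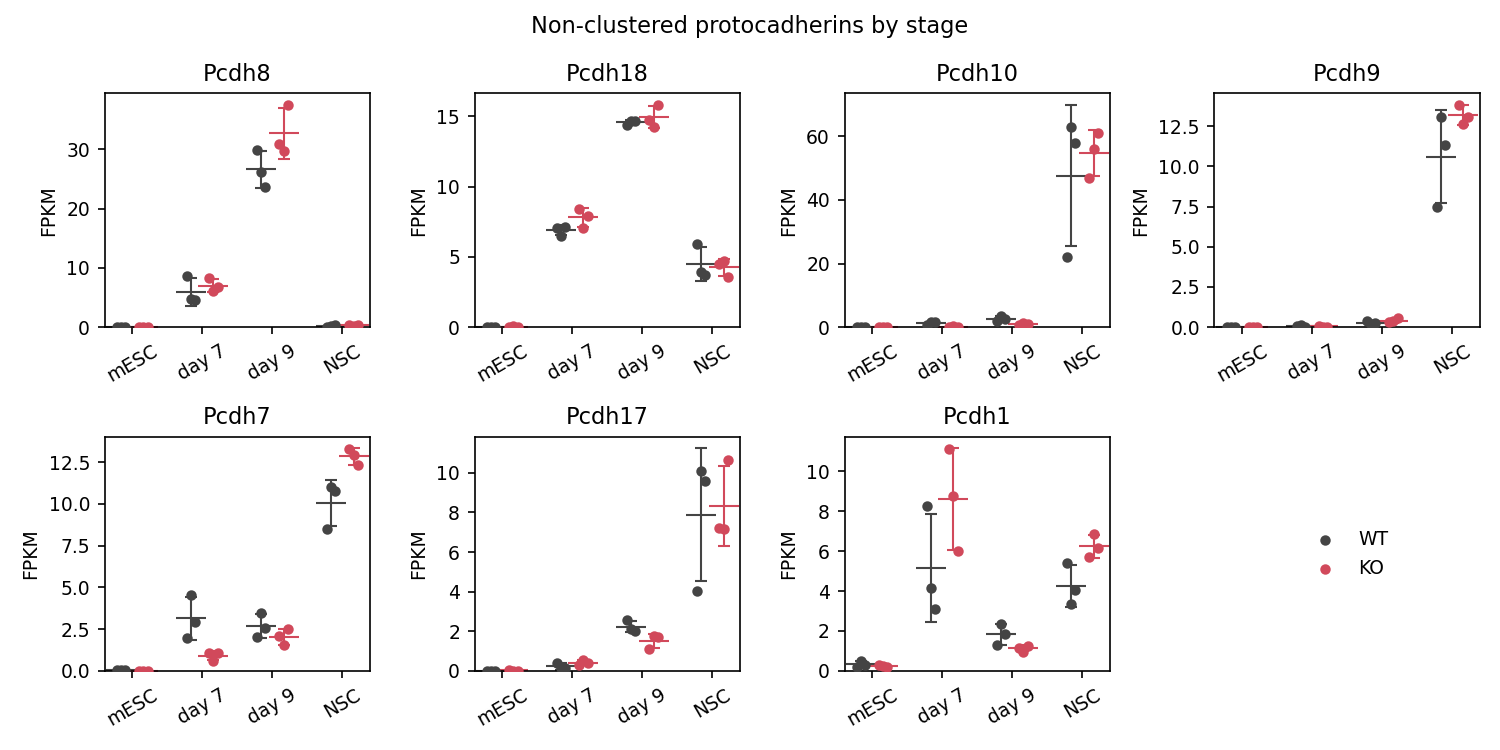
FPKM of the 7 non-clustered protocadherins that passed the filter, by stage, with a point for each library and a bar and whiskers for the mean and SD of 3 libraries of WT (grey) or KO (red). Pcdh8 and Pcdh18 are highest at day 9, Pcdh10, Pcdh9, Pcdh7 and Pcdh17 in NSCs, and Pcdh1 at day 7, where its libraries spread widely.

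Pcdh10 was the most abundant non-clustered member in NSCs, with 22.1, 62.9 and 58.0 FPKM in WT and 46.9, 56.1 and 61.0 FPKM in KO cells. At day 7 and day 9 its means were low, and lower in KO, with 0.652, 1.58 and 1.52 FPKM in WT and 0.205, 0.258 and 0.206 FPKM in KO cells at day 7. At day 9 it had 2.02, 3.57 and 2.52 FPKM in WT and 0.786, 1.24 and 1.14 FPKM in KO cells. The libraries did not overlap at either stage, but the differences of -0.85 and -0.84 missed the threshold (limma adjusted p = 0.0813 and 0.0617). Pcdh10 was called lower at day 7 in 4 alternatives, which were the pseudocount of 0.1, the libraries of the comparison alone, the replicate block (limma adjusted p = 0.0245) and leaving out replicate 1 of WT. At day 9 it was called lower in 3, with scaling, with the libraries of the comparison alone and with the replicate block (limma adjusted p = 0.0181). WT NSC replicate 1 was the lowest of its group for Pcdh10, Pcdh9, Pcdh7 and Pcdh17, and for the Pcdhb sum (41.5 FPKM against 53.4 and 72.1 FPKM).

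Pcdh7, a δ1-protocadherin, was the 1 non-clustered member whose level fell in KO cells with the filter on. At day 7 it had 1.97, 4.53 and 2.92 FPKM in WT and 1.09, 0.577 and 1.05 FPKM in KO cells, a difference of -1.08 (SE 0.19, limma adjusted p = 0.00109). At day 9 its libraries overlapped (2.68 ± 0.727 FPKM in WT and 2.05 ± 0.479 FPKM in KO cells), and in NSCs KO was above WT with 12.9 ± 0.495 against 10.1 ± 1.39 FPKM, a difference of 0.33 that was not called. Its KO effect at day 7 against that in mESCs just missed the threshold (limma adjusted p = 0.0582). Pcdh12, an endothelial protocadherin under the filter, had at most 0.879 FPKM in any library. Without the filter it was called lower in KO cells at day 7 (0.618 to 0.139 FPKM) and at day 9 (0.651 to 0.238 FPKM). The summed endothelial markers given above were also lower in KO cells at both stages, and their part in the fall of Pcdh12 was not tested.

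Pcdh9 and Pcdh17 were both highest in NSCs. Pcdh9 had 0.284 ± 0.0952 FPKM in WT cells at day 9 and 7.46, 13.0 and 11.3 FPKM in WT NSCs, beside 13.8, 12.6 and 13.1 FPKM in KO NSCs. Pcdh17 had 2.23 ± 0.299 FPKM at day 9 and 7.89 ± 3.36 FPKM in WT NSCs, beside 8.34 ± 2.01 FPKM in KO NSCs. Pcdh1 was the exception, with 8.24, 4.16 and 3.12 FPKM in WT and 11.1, 8.76 and 5.999 FPKM in KO cells at day 7, then 1.83 ± 0.537 and 1.12 ± 0.159 FPKM at day 9, and 4.26 ± 1.05 and 6.25 ± 0.591 FPKM in NSCs. None of these 3 genes was called between genotypes. Pcdh15, known from hair cells of the inner ear, and Pcdh20 did not exceed 0.537 and 0.264 FPKM.

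Other families around the protocadherins moved in part. Of 16 other cadherins 15 were tested, and at day 9 4 fell and 1 rose in KO cells, with Cdh6 at 15.4 ± 2.75 FPKM in WT and 5.21 ± 0.911 FPKM in KO cells (difference -1.40) and Fat4, an atypical cadherin of planar polarity, at 3.83 ± 1.27 and 10.4 ± 2.40 FPKM (1.25). Of all rows tested 6.68% were called and 2.58% rose at day 9. At day 7 2 of the cadherins fell, where 3.68% of all rows were called, and in mESCs and NSCs 0 of 15 were called. The median over the list was -0.27 at day 9, where that of all rows tested was 0. Of 14 listed binding and signalling partners 13 were tested. At day 9 Ret, a receptor tyrosine kinase reported to bind protocadherins, was at 5.20 ± 1.30 FPKM in WT and 1.59 ± 0.254 FPKM in KO cells (-1.24), and Celsr3 at 5.74 ± 0.136 and 2.83 ± 0.730 FPKM (-0.84). Ret fell at day 7 as well, and Cyfip1, of the WAVE complex, rose in NSCs (0.36), so that 1, 2 and 1 of the 13 were called at day 7, day 9 and in NSCs, beside 3.68%, 6.68% and 6.02% of all rows.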

How the data were processed

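RNA of WT and SmcHD1-mutant JB4/EI7HZ2 cells at 4 stages was sequenced by the authors from stranded poly(A) libraries as single-end reads. Per the labels and the study's methods, reads were trimmed with Trim Galore 0.6.6, aligned to UCSC mm9 with TopHat2 2.1.1, cleared of ribosomal and X-chromosome reads and quantified with Cuffdiff. What the authors deposited is 1 FPKM value per gene and library. Library normalization, strand setting and read totals are not given in the sources used here. The low values give relative read numbers of 0.807 to 1.16, and sums of FPKM ran from 504660 to 802938. Of 36 FPKM columns, 12 belong to other samples and were not used. In 1 row the authors' estimate had failed in 5 libraries, and that row was left out.

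Groups were fitted with limma 3.58.1 (R 4.3.3, lmFit, eBayes with trend and robust) on log2(FPKM + 1), with 8 groups, two-sided, over the 12105 rows outside X and Y with a mean of at least 1 FPKM. The pseudocount understates changes of low genes. Exact permutation of 3 against 3 libraries cannot go below p = 0.1. The members, the lists of other genes and the rule for naming genes (all rows that passed the filter, weaker rows with 1 FPKM in all 3 libraries of a group, Smchd1, Ctcf and the 2 largest differences of each list) were chosen with earlier results of these data known; genes named beyond it were chosen after their values were seen. Same-numbered WT and KO libraries deviated together in mESCs (r of 0.289, 0.435 and 0.141) and NSCs (0.335, 0.184 and 0.240), where the number from the labels was taken as a pairing, and not at day 7 or day 9. Promoters came from a RefSeq table, and gene positions from GENCODE annotation of mm9. Alternatives were another pseudocount (0.1), no filter, scaling, fewer libraries, a replicate block and leaving out each library. The fit was tested on simulated data.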

Additional observations from a re-analysis of the deposited data

Results flagged for a closer look

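The KO effect differed between stages by a test of the difference itself (limma, on the log2(FPKM + 1) scale) for these members. Between day 9 cells and mESCs it was larger at day 9 for Pcdhb2 (1.54, adjusted p = 0.00100), Pcdhb11 (1.55, adjusted p = 0.000651), Pcdhb22 (1.34, adjusted p = 0.00334), Pcdhb3 (1.07, adjusted p = 0.0288) and Pcdhb18 (0.87, adjusted p = 0.0385). Between NSCs and mESCs it was larger in NSCs for Pcdhb5 (1.36, adjusted p = 0.00244). Between NSCs and day 9 cells, a comparison chosen after seeing the data, it was larger in NSCs for Pcdhb5 (0.82, adjusted p = 0.0401) and smaller for Pcdhb11 (-1.02, adjusted p = 0.0156), Pcdhb18 (-1.31, adjusted p = 0.000931), Pcdhb20 (-0.88, adjusted p = 0.0333) and Pcdhb22 (-1.52, adjusted p = 0.000658). Of these, the day 9 differences of Pcdhb18 and Pcdhb3 were lost in 15 and 12 of 17 alternatives, and in the last comparison those of Pcdhb20 and Pcdhb5 in 11 and 10. Each group holds 3 libraries, so single libraries were not tested as outliers.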

How the results depend on the processing

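No called difference of a protocadherin row changed direction under any alternative. The number of called rows moved as follows. KO against WT at day 7 went from 4 to 10 with a pseudocount of 0.1 (8 higher, 2 lower) and to 2 with scaling. All rows called there went from 446 to 338 and 403. At day 9 it went from 9 to 18 without the filter, where all rows called went from 809 to 1221. In NSCs it went from 5 to 1 with the pseudocount and to 0 with the contrast's libraries alone. All rows called there went from 729 to 699 and 58. Without the filter, where more rows are tested, 30 rows were called in WT NSCs against mESCs, and 29 in KO cells at day 9 and 29 in KO NSCs, beside 60.3%, 56.6% and 60.3% of all rows. For the KO effect against that in mESCs, day 7 went from 0 to 3 with the pseudocount, 2 with the contrast's libraries alone and 1 with the replicate block. All rows called went from 203 to 145, 153 and 330. Day 9 went from 5 to 2 with the pseudocount and 3 with scaling, and all rows from 324 to 165 and 281. NSCs went from 1 to 0 with the pseudocount, 2 without the filter and 2 with the replicate block. All rows went from 274 to 301, 378 and 504. For NSCs against day 9, 5 became 3 with the pseudocount, 8 without the filter and 2 with the contrast's libraries alone. All rows went from 707 to 537, 942 and 532. The causes were not tested. Leaving out 1 library gave 2 to 4 called rows at day 7, 5 to 9 at day 9 and 2 to 6 in NSCs, and for the KO effect against mESCs 0 to 2, 3 to 4 and 1 to 4, and against day 9 in NSCs 2 to 6. For KO against WT such fits called 273 to 521 of all rows at day 7, 449 to 752 at day 9 and 406 to 1352 in NSCs. In NSCs the replicate block, which follows the pairing, gave 6 called rows in place of 5, and all 5 stayed called. It called 1145 of all rows in place of 729. Scaling to the same sum moved the median of all rows by 0.18 to 0.44 between stages, and the Pcdhb sum in KO NSCs from 74.2 to 89.6 FPKM. Read totals are unknown, so values near 0 FPKM carry no counting interval.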
